A study of Bos taurus with 24 samples.

Results

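ALB, the gene of serum albumin, is row ENSBTAG00000017121 of the deposited tables, 1 gene of the 27607 counted. It was taken by its identifier, and its values are given here for all 24 RNA-seq libraries of the series, 12 from liver biopsies and 12 from mammary biopsies. The animals were multiparous Holstein dairy cows, pregnant and no longer milked, sampled 21 d before they were due to calve. Milking had stopped at 60 d before calving, and from 35 d before calving all cows lived in 1 barn with 16 h of light at 150 lx and 8 h of dark per day. For control cows the cycle was constant. For phase shift cows it was moved forward by 6 h every 3 d, for 2 weeks and at least 5 shifts. Each tissue has 6 control and 6 phase shift libraries, from 6 control and 7 phase shift cows in all. Both tissues were sequenced for 11 of these cows, while phase shift cow 25 has liver alone and phase shift cow 21 mammary alone. The 2 treatments were kept in separate parts of the barn, so the barn side and the light treatment cannot be told apart, and the sources used here do not state the hour of biopsy.

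Albumin is the most abundant protein of blood plasma. Hepatocytes make it and secrete it without storing it, and it carries fatty acids, bilirubin, hormones and metal ions and holds water in the vessels. Its synthesis falls in the acute phase response, and plasma albumin is followed in dairy cows around calving as a measure of liver function. Its promoter is a classical model of liver-specific transcription, bound by HNF1 and C/EBP factors and by DBP, a clock-controlled protein named for its site on that promoter. Milk also contains serum albumin, which comes mostly from the blood. In the RefSeq gene table of assembly ARS-UCD2.0, a later build than the ARS-UCD1.2 of the files, ALB lies next to ANKRD17 on one side and AFP and AFM, 2 further genes of the albumin family, on the other. That table pairs no symbol with the Ensembl identifiers of the files (0 matched), so other genes are given here by identifier, and the fixed lists of plasma proteins, clock genes and cell markers could not be read out.

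The libraries held 7.68 to 26.9 M counts in liver and 5.05 to 13.1 M in mammary, where M stands for 1000000, and each cow counts as 1 replicate within a tissue. Over all genes, 3 libraries were taken as standing apart from the rest of their tissue, and no measure of that distance is given here. They are the liver of phase shift cow 22 and, in mammary, phase shift cow 21 and control cow 26. Treatment comparisons are given with and without them. The rankings of genes by their r with ALB are given without phase shift cow 21 alone, in mammary.

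ALB took more counts than any other gene in each of the 12 liver libraries. In the control cows it took 5.78% of all liver counts in cow 19, 6.11% in cow 25, 6.94% in cow 21, 6.98% in cow 24, 7.75% in cow 23 and 7.85% in cow 26. In the phase shift cows it took 5.17% in cow 22, 6.21% in cow 19, 6.55% in cow 23, 6.97% in cow 24, 7.08% in cow 26 and 7.15% in cow 25. The treatments overlapped, and both the highest pair of values and the next to lowest value belonged to control cows. Over the 12 livers the share was 6.71% ± 0.785 (SD, n = 12), or 67103 CPM (counts per 1000000 counts of the library), with a range of 1.52 times from the lowest to the highest cow. The counts behind these shares ran from 462218 to 1906824. Each share is therefore known far more closely than the cows differ: the widest of the exact 95% binomial intervals, which cover counting error only, was 7.83 to 7.86% for control cow 26.

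The gene with the next most counts in liver, ENSBTAG00000017280, had a mean share of 3.21%, and ALB exceeded it 1.58 to 2.61 times, depending on the cow. These are shares of counts without division by transcript length, so they rank genes by reads and not by molecules. The 10 genes with the most counts took 20.1% of liver counts on average. The coefficient of variation of ALB between cows was 11.7%, against at most 0.147% from counting alone. Among the 100 genes with the most liver counts the median coefficient of variation was 13.5%, and 31 of them varied less than ALB.

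The cow with the lowest share was not the cow with the lowest scaled value. Phase shift cow 22 had the lowest share of the 12 livers, but the authors' normalized count, which divides by 1 size factor per library, was 637067 there and ranked 4 from the bottom. In this library 481 genes had a CPM 8 or more times their median in the remaining livers, and they held 9.50% of its counts against 0.462 to 0.521% in the other livers. The genes were picked by their level in this library, so a larger share there follows from the rule and is only a description. With these genes left out of the total, a setting chosen after the values were seen, the ALB share of cow 22 was 5.71%, still the lowest, beside 5.81% in control cow 19. On the authors' normalized scale the lowest liver was control cow 19, at 568059, and the highest control cow 23, at 778415, and the coefficient of variation over the 12 was 9.48%.

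**Figure D1:**
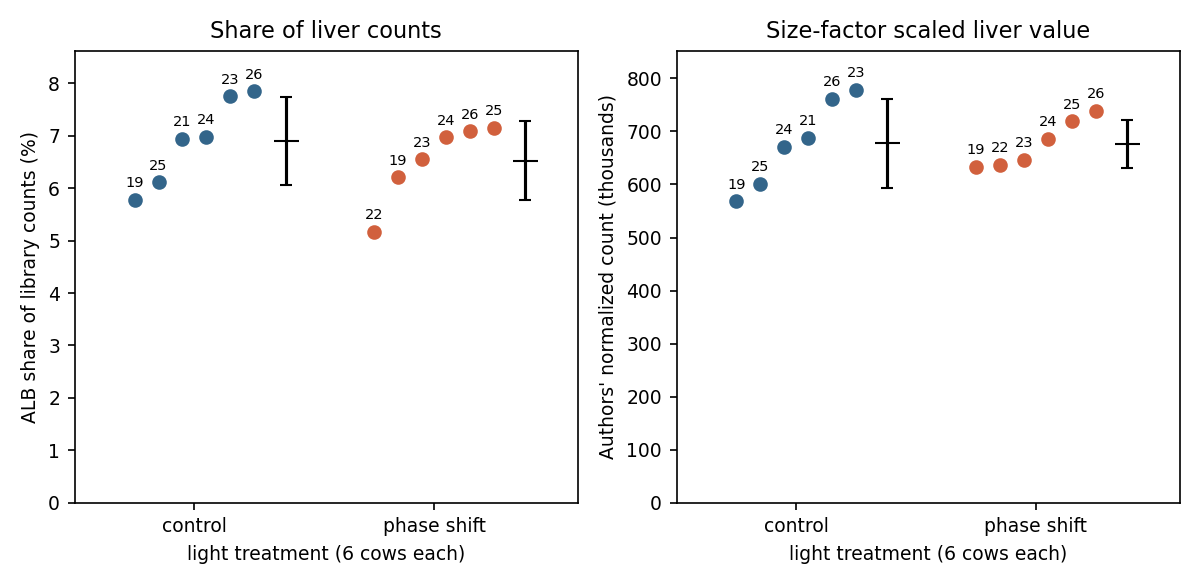
ALB in the 12 liver libraries by light treatment, as percent of all counts of the library (left) and as the authors' normalized count divided by 1000 (right). Points are cows, labelled by cow number, and black bars show the mean ± SD of 6 cows. The treatments overlap on both scales, and phase shift cow 22 is lowest on the left but not on the right.

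Phase shift and control cows did not differ detectably in liver ALB. The share was 6.90% ± 0.838 (SD, n = 6) in control cows and 6.52% ± 0.753 (SD, n = 6) in phase shift cows, a difference of -0.379 percentage points (exact two-sided permutation p = 0.437 over 924 assignments, of which the smallest possible p is 0.00216). On the authors' normalized scale the means were 677998 (SD 83965) and 676747 (SD 44913). In the edgeR fit of the 12 liver libraries the log2 fold change was -0.0067 (SE 0.084), with a 95% confidence interval from -0.19 to 0.17, that is from a fall of 12.1% to a rise of 12.7%, and an adjusted p of 0.991. In the same fit 0 of 13752 genes (0%) passed an adjusted p of 0.05, with 813 at an unadjusted p under 0.05. DESeq2 called 16 genes and limma-voom 0, and ALB was not among them (adjusted p of 0.999 in DESeq2 and 0.9999 in limma-voom). The difference in share was -0.108 percentage points without phase shift cow 22 and -0.603 without control cow 19, the widest range that leaving out 1 cow gave. The sign of the fitted fold change was not stable, and it turned when any of 5 libraries was left out, phase shift cow 22 among them (0.012).

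In mammary tissue ALB was a small fraction of its liver level, and 1 library stood far above the rest. The level in each mammary library is given as a percent of the mean liver CPM, with the exact Poisson interval of its count at 95%, which leaves out the spread between livers. In the control cows it was 0.108% in cow 19 (0.0989 to 0.118, 490 counts), 0.0950% in cow 26 (0.0887 to 0.102, 833 counts) and 0.0902% in cow 24 (0.0827 to 0.0982, 528 counts). The other controls lay lower, at 0.0562% in cow 23 (0.0488 to 0.0644, 206 counts), 0.0536% in cow 21 (0.0471 to 0.0608, 241 counts) and 0.0402% in cow 25 (0.0343 to 0.0469, 163 counts). The control cows spanned a range of 2.69 times, and their coefficient of variation was 37.0%.

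Among the phase shift cows the mammary level was 0.0906% in cow 23 (0.0837 to 0.0979, 640 counts), 0.0898% in cow 26 (0.0821 to 0.0981, 495 counts) and 0.0802% in cow 19 (0.0734 to 0.0873, 522 counts). It was 0.0740% in cow 24 (0.0657 to 0.0829, 293 counts) and 0.0667% in cow 22 (0.0583 to 0.0760, 226 counts). These cows lay inside the range of the controls, with intervals that met those of their neighbours in the order. In phase shift cow 21 the level was 1.77% (1.73 to 1.80), from 10986 counts, which is 22.1 times the median of the other 11 libraries and 16.3 times the highest of them. ALB ranked 41 by count in that library and between 2568 and 6548 in the other 11. Every count was far above the 3 counts taken as the floor of a library.

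The percent depends on the scaling. The authors' normalized counts were scaled within each tissue, so their mammary and liver values share no common scale and their percent is only a rough one. The median of the 12 mammary libraries was 0.0850% by CPM, 0.0574% by the authors' normalized counts and 0.0387% by CPM with TMM factors from all 24 libraries. For phase shift cow 21 the values were 1.77%, 1.68% and 1.10%. Against the liver library of the same cow, which 11 mammary libraries have, the level ran from 0.0442% in control cow 25 to 0.126% in control cow 19, with a median of 0.0851%. Phase shift cow 21 has no liver library to be set against.

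**Figure D2:**
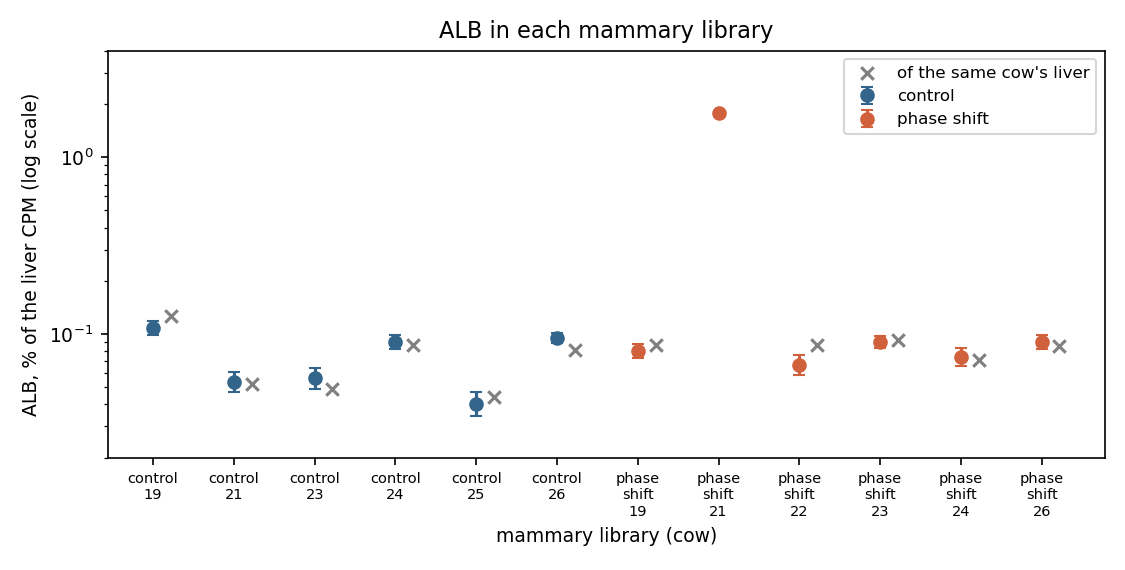
ALB in each mammary library as percent of the mean CPM of the 12 livers, on a log axis, with exact 95% Poisson intervals of the count, by cow and light treatment. Grey crosses give the percent of the liver of the same cow. All libraries lie between 0.0402 and 0.108% except phase shift cow 21 at 1.77%.

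The tissue difference in ALB passed the test under each setting that gave a p. In the edgeR fit of all 24 libraries the log2 fold change of ALB, mammary minus liver, was -10.07 (SE 0.75, adjusted p = 1.88e-11), and ALB was lower in mammary in each of the 11 cows with both tissues. This corresponds to a level 1077-fold lower, with a 95% confidence interval from 366 to 3167. In that fit 72.8% of 16656 genes passed the threshold, 6485 higher and 5647 lower in mammary. The lower ones were 33.9% of all genes tested. With library totals alone the split was 12176 higher and 2486 lower, the median log2 difference of all genes moved from 0.078 to 1.07, and that of ALB became -9.25. The size also depended on how libraries were averaged: it was -10.98 in limma-voom, -11.36 without mammary of phase shift cow 21 (2635-fold), and -11.42 with the cow as a block over the 11 cows (adjusted p = 9.90e-13 in edgeR), a fit that leaves out phase shift cows 21 and 25. In bulk tissue, fewer cells that express a gene and less of its RNA per cell cannot be told apart.

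In mammary, the difference between treatment means of ALB rested on 1 cow and did not pass the test. Over all 12 mammary libraries the mean was 49.6 CPM (SD 18.4, n = 6) in control cows and 243 CPM (SD 462, n = 6) in phase shift cows, and the edgeR log2 fold change was 2.46 (SE 0.98), with a 95% confidence interval from 0.35 to 4.58, an unadjusted p of 0.0261 and an adjusted p of 0.924. Without phase shift cow 21 the phase shift mean was 53.9 CPM (SD 6.89, n = 5), the log2 fold change was -0.060 (SE 0.29, 95% confidence interval -0.70 to 0.58), and the adjusted p was 0.973 in edgeR. Leaving out any other mammary library kept the log2 fold change between 2.34 and 2.73. The log2 share differed by 0.94 (exact two-sided permutation p = 0.247), and by 0.20 without phase shift cow 21 (exact permutation p = 0.489). With phase shift cow 21 and control cow 26 both left out, the log2 fold change was 0.18 and the adjusted p 0.950 in edgeR.

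Some alternative fits gave smaller differences over the same 12 libraries. The log2 fold change was 0.84 in limma-voom and 0.65 on the authors' regularized log values, with adjusted p of 0.991 and 0.998. DESeq2 gave 2.46 and returned no p for ALB. Over all genes in mammary, edgeR called 0 of 15547 (0%), with 739 at an unadjusted p under 0.05, and DESeq2 and limma-voom also called 0.

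The spread between the phase shift cows other than cow 21 was narrow. Their coefficient of variation in mammary ALB was 12.8% (n = 5), below the 37.0% of the 6 control cows, of which none was left out. With phase shift cow 21 it was 191% (n = 6), above that of the control cows. The difference in spread was not tested.

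**Figure D3:**
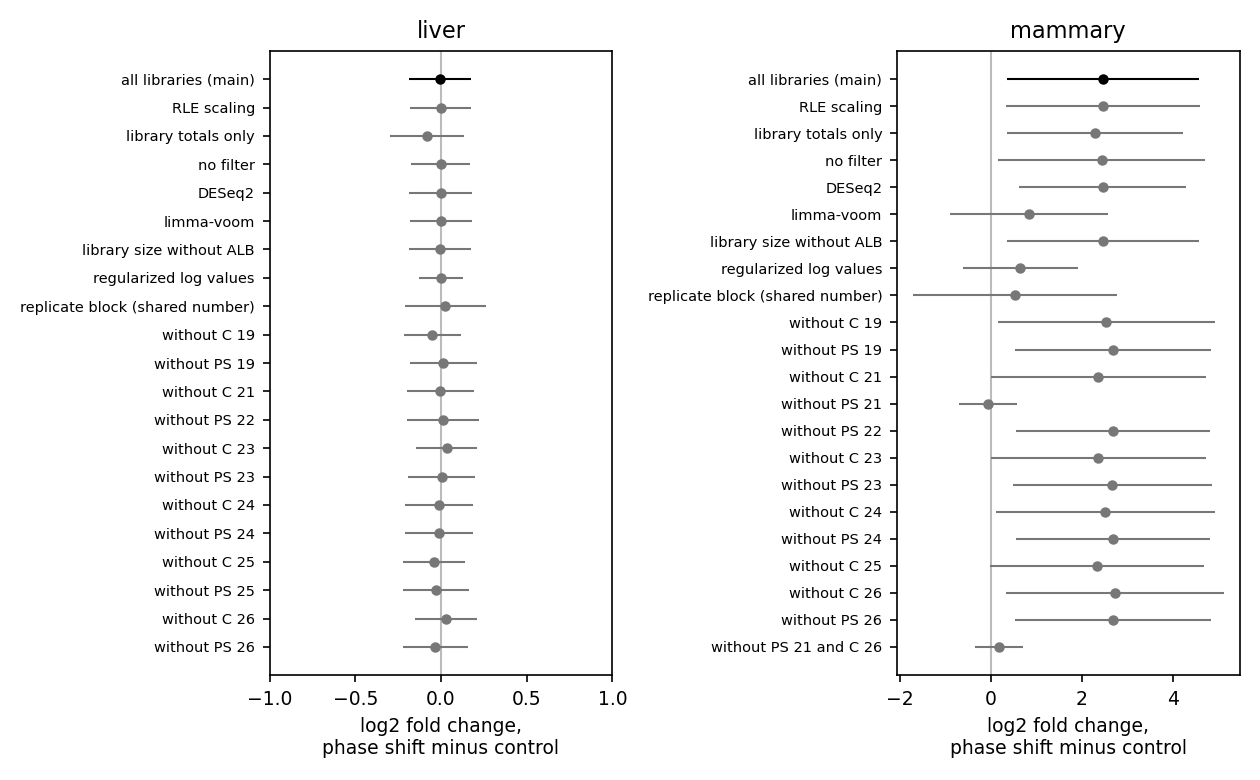
Log2 fold change of ALB, phase shift minus control, with 95% confidence intervals in liver (left) and mammary (right), under each setting. C and PS stand for control and phase shift cows, and the horizontal scales differ. Liver values stay between -0.081 and 0.032, while the mammary value falls from 2.46 to -0.060 without phase shift cow 21.

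The ALB responses of the 2 tissues did not differ beyond the threshold, with or without that library. The mammary response to the phase shift minus the liver response was 2.47 on the log2 scale (SE 1.04, edgeR adjusted p = 0.737), and it was -0.042 (SE 0.34, edgeR adjusted p = 0.993) with phase shift cow 21 left out of the mammary libraries. With the cow as a block it was 0.089 (edgeR adjusted p = 0.985), in a fit that also leaves out phase shift cows 21 and 25. For this interaction 0 of 16656 genes (0%) passed in edgeR, with 1111 at an unadjusted p under 0.05, while limma-voom called 0 and DESeq2 called 1 gene. DESeq2 gave ALB no p there either.

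ALB was then set beside other genes that are abundant in liver and low in mammary. The list holds genes with at least 100 CPM in every liver library whose median over the 12 mammary libraries is under 1% of the liver mean, which 183 genes met, ALB among them. It is a data-based list, chosen partly by mammary values, so its typical mammary level is a description. In the 11 mammary libraries other than phase shift cow 21, the median of the 182 other genes ran from 0.0595% to 0.128% of their liver level, and ALB stood at 0.523 to 0.876 times that median. In phase shift cow 21 the median of the 182 genes was 1.79%, with quartiles of 1.46 and 2.13%, beside 1.77% for ALB. ALB lay between the quartiles of the list in 12 of 12 mammary libraries.

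The other liver genes were raised in phase shift cow 21 to much the same percent as ALB. There 168 of the 182 genes lay within a 2-fold distance of ALB, against 67 to 113 in the other 11 mammary libraries. Of the 182 genes, 5 to 37 had 0 counts in each of the other 11 libraries, against 0 genes in phase shift cow 21. At such low counts, counting error also spreads the values, and its part was not tested. In phase shift cow 21, 159 of the 182 had their highest mammary value. At least 1% of the liver level was reached by 177 of the 182 genes in phase shift cow 21, and by 0 to 19 in the other libraries. The share of all genes with their highest mammary value in phase shift cow 21 was not computed. These counts are therefore not shown to be particular to liver genes. The excess of phase shift cow 21 over the median of the other 11 libraries was 1.69% of the liver level for ALB and a median of 1.59% for the list, with quartiles of 1.30 and 1.95%. Among the 10 genes with the most liver counts, the 3 others on the list, ENSBTAG00000007273, ENSBTAG00000022120 and ENSBTAG00000001638, stood in that library at 1.66%, 1.69% and 1.54% of their liver level. The library also stood apart in abundant genes off the list: 4 of the other 6 had their highest mammary value there, among them ENSBTAG00000043570, at 591% of its liver level against a mammary median of 155%. The part of liver RNA or liver reads in the mammary counts of ALB was not tested.

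**Figure D4:**
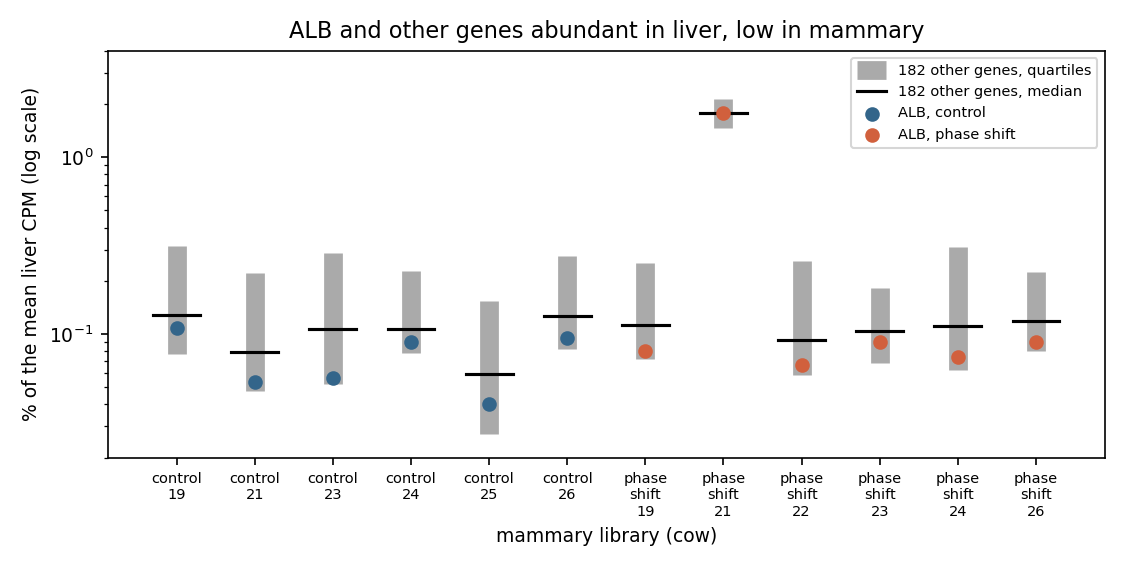
ALB (points, coloured by light treatment) beside the median and quartiles of 182 other genes abundant in liver and low in mammary, as percent of each gene's mean liver CPM on a log axis, in each mammary library. ALB lies between the quartiles in all 12 libraries, and both ALB and the list are raised in phase shift cow 21, at 1.77 and 1.79%.

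The proportion of ALB in the summed counts of the list was within the liver range in phase shift cow 21 and lower in the other mammary libraries. ALB made up 21.4 to 27.8% of the counts of the 183 genes in the liver libraries. In mammary it made up 24.7% in phase shift cow 21 and 3.35 to 15.2% in the other 11 libraries. The 3.35% was that of control cow 26. There the highest of the 182 other genes stood at 92.0% of its liver level, and their median at 0.127%. The next lowest proportion was 6.70%, in control cow 25, where the highest of the other genes stood at 5.47% of its liver level. In control cow 19, which had the 15.2%, the highest stood at 0.988%. Genes that are high for the list enter the summed counts, so the proportion depends on the list, and their part was not tested. The 183 genes took 21.0 to 28.3% of all counts in liver, 0.481% in mammary of phase shift cow 21, 0.190% in that of control cow 26 and 0.0388 to 0.0494% in the other 10. Across the 183 genes, which are not independent replicates, Spearman's rho was taken between the mammary counts and the mean liver level. It was 0.919 in phase shift cow 21 and 0.627 to 0.782 in the other libraries. Genes with few or 0 counts can lower rho in those libraries, and their part was not tested.

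Set against a single gene, ENSBTAG00000007273, which ranks 5 by liver counts and is next to ALB on the list, ALB had a similar median ratio in both tissues. There were 4.95 to 6.94 ALB counts per count of that gene in the 12 livers, with a median of 6.03. In mammary the ratio was 6.36 in phase shift cow 21 (exact 95% interval from counting 6.04 to 6.69), and its median over the other 11 libraries was 6.05. In 11 of 12 mammary libraries the counting interval of the ratio reached into the liver range, though at low counts these intervals are wide. Over the 11 mammary libraries without phase shift cow 21, log2 CPM of ENSBTAG00000007273 and ALB had a Pearson's r of 0.901. The ratio is not separate from that relation, and no ratio to another gene of the list was computed. The ratio was above the liver range in control cow 25, at 8.15 (5.11 to 13.7), and below it in phase shift cow 24, at 4.80 (3.63 to 6.44). The library whose interval missed the range was control cow 26, at 3.20 (2.78 to 3.70), where ENSBTAG00000007273 stood at 0.177% of its liver level and ALB at 0.0950%.

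**Figure D5:**
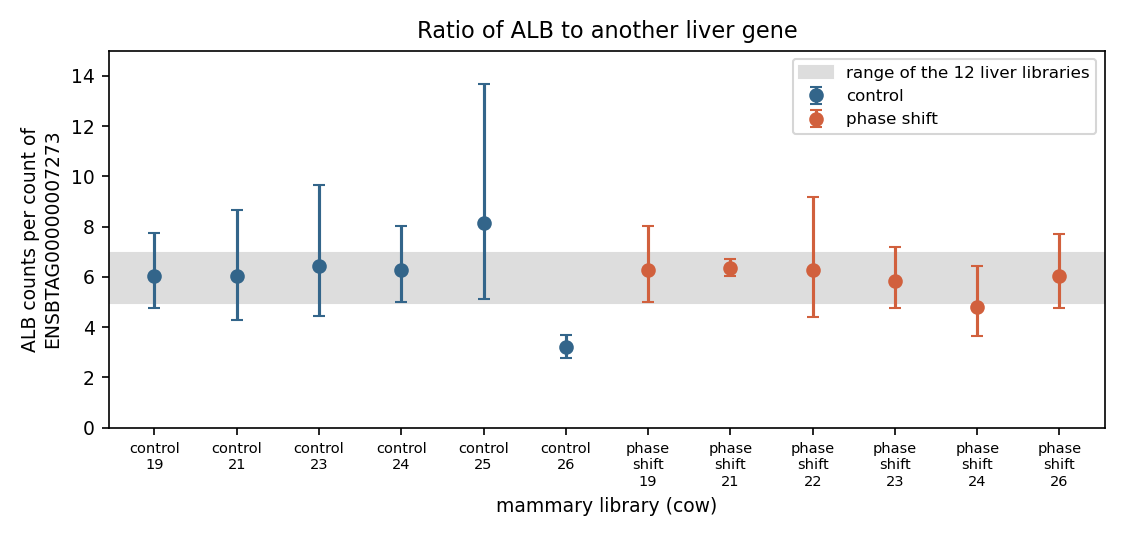
Counts of ALB per count of ENSBTAG00000007273 in each mammary library, with exact 95% intervals for counting error, by light treatment. The grey band is the range of the 12 liver libraries, 4.95 to 6.94. Control cow 26, at 3.20, is the mammary library whose interval misses the band.

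Across the 11 mammary libraries without phase shift cow 21, ALB and the median of the 182 genes moved together. On the log2 scale Pearson's r was 0.885 (permutation p = 6.7e-04, adjusted over 4 relations 0.00268) and Spearman's rho was 0.745 (permutation p = 0.0117, adjusted 0.0456). This relation was not among those fixed in advance, and the list was chosen partly by these mammary values. Both measures come from the same libraries and share their totals, so the p is descriptive. Without the libraries farthest from the median, control cows 25 and 21, r was 0.637 and rho 0.533 over 9 libraries (permutation p = 0.067 and 0.149), so it had the same direction and no longer passed 0.05. No r was computed over all 12 libraries, since phase shift cow 21 forms a point of its own.

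Liver ALB and mammary ALB of the same cow were not detectably related. Over the 11 cows with both tissues r was 0.0610 (permutation p = 0.859) and rho was 0.145 (permutation p = 0.674), and without the points farthest from the median, phase shift cow 22 and control cow 19, r was 0.294 (permutation p = 0.441). The adjusted p over the 4 relations was 0.859 for r and 0.674 for rho. Liver ALB had an r of 0.198 with the total count of the liver library (permutation p = 0.526, adjusted 0.701; rho 0.266, p = 0.406, adjusted 0.541), and 0.186 without the 2 deepest libraries.

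Mammary ALB had an r of 0.592 with the total count of the library over the 11 libraries (permutation p = 0.0554, adjusted 0.111) and a rho of 0.691 (permutation p = 0.0228, adjusted 0.0456). Without control cow 26 and phase shift cow 23, the deepest of the 11, r was 0.508 and rho 0.583 over 9 libraries (permutation p = 0.162 and 0.108). On the authors' normalized counts r was 0.783 (permutation p = 0.00473).

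The genes whose level followed ALB most closely were ranked by Pearson's r of log2 CPM with ALB over the 12 libraries of a tissue, which is a description over many genes. In liver 5 of 13751 genes had an r over 0.9, led by ENSBTAG00000009773 at 0.946 and ENSBTAG00000003112 at 0.934. These 5 liver genes were not on the list of 182 liver-abundant genes, a small part of the genes ranked. In mammary 28 of 15546 genes had an r over 0.9, led by ENSBTAG00000018365 at 0.995, and the leading 5 were all on that list. Without phase shift cow 21 the number was 2 of 15546, and ENSBTAG00000018365 was again first, with an r of 0.949 over 11 libraries. Of the leading 5 in that ranking, 4 were on the list, and ENSBTAG00000003809, at an r of 0.887, was not.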

How the data were processed

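The tools named in the submitters' processing notes are Trimmomatic 0.36 for trimming, STAR 2.5.2b for alignment (build ARS-UCD1.2), featureCounts (Subread 1.5.2) for counting, and DESeq2. Per the labels' protocols the RNA was depleted of ribosomal RNA and read as pairs. Annotation release and strand setting: not given in the sources used here. The deposited values are raw counts, normalized values (a signal equal to the count divided by 1 size factor per library, checked on the files) and regularized log2 values, scaled within a tissue.

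Shares and CPM were computed from raw counts. Treatments were compared with edgeR 4.0.16 (quasi-likelihood, TMM, filterByExpr at a minimum count of 10 and total of 15; R 4.3.3), with Benjamini-Hochberg adjustment over all genes at 0.05. DESeq2 1.42.0 and limma 3.58.1 were alternatives, as were other scalings, no filter, blocks and each library left out. Log2 CPM used a prior count of 2. Shares were tested by exact permutation and correlations by 100000 permutations (scipy 1.17.1). Tissues were paired by cow label: over all genes, liver and mammary deviations from the group means correlated at 0.00174 to 0.197, over 0.1 in 4 of 11 cows. Depth is given in the report, where counting intervals at 95% cover counting error only.

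Named genes were ALB, the 10 with the most liver counts, and the 5 most like ALB in each tissue. Liver-abundant genes were defined by the rule in the report. Gene and lists were chosen with earlier results of these data known. Lists by symbol were left out because no identifier matched among 37063 RefSeq genes.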

Additional observations from a re-analysis of the deposited data

Results flagged for a closer look

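Samples were compared within the 4 groups of 6 for ALB share, ALB log2 CPM and total count, 12 sets of values in all. Dixon's test divides the distance between an end value and its neighbour by the whole range, and the limit was its 95% critical value. It was passed 4 times, against about 0.6 for 12 independent sets. The sets are not independent, since ALB share and ALB log2 CPM are the same measure on different scales. The comparison with 0.6 is therefore only rough.

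Mammary of phase shift cow 21 passed it with an ALB share of 0.119% of counts, beside 0.00608% in the next highest phase shift cow, and with an ALB log2 CPM of 10.21, beside 5.93. Liver of control cow 24 passed it with a total of 11.996 M counts, beside 8.69 M in the next highest control, and liver of phase shift cow 26 with 26.9 M, beside 13.0 M. In these deep liver libraries the ALB share, 6.98% and 7.08%, lay inside the range of the other cows.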

How the results depend on the processing

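Of 49 alternatives other than leaving out 1 library, 41 kept the direction and the side of the threshold or the value. The size of a fold change was not part of this rule. In mammary, log2 fold changes of 0.84 in limma-voom and 0.18 without phase shift cow 21 and control cow 26 counted as kept beside 2.46. The liver log2 fold change of ALB, -0.0067, turned to 0.0023 on the regularized log values and to 0.025 with the replicate block, all far from the threshold. By TMM and by the authors' normalized counts, the median mammary percent of the liver level was 0.0387 and 0.0574 in place of 0.0850, and that of phase shift cow 21 was 1.10 and 1.68 in place of 1.77. The relation of mammary ALB with depth passed 0.05 on the authors' normalized counts, where r was 0.783, and the relation with the list of liver genes no longer did without 2 libraries, where r was 0.637 (permutation p = 0.067). The cause was not tested.

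Leaving out 1 library gave a log2 fold change of -0.051 to 0.032 in liver, -0.060 to 2.73 in mammary, -11.36 to -9.96 between tissues and -0.042 to 2.73 for the difference of responses. For shares it gave -0.603 to -0.108 percentage points in liver and 0.20 to 1.14 on the log2 scale in mammary. The low ends in mammary and for the responses, and the largest tissue difference, came without phase shift cow 21. DESeq2 gave no p for ALB in the mammary, tissue and interaction fits, so those have no entry.

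With the shared number as a replicate block, over 5 numbers per tissue, the log2 fold change was 0.025 in liver and 0.53 in mammary, and the share differed by -0.0999 percentage points in liver and 0.99 on the log2 scale in mammary, with the smallest possible p of 0.0625. Whether the shared number pairs the cows of a tissue could not be settled. Deviations correlated over 0.1 in 1 of 5 pairs in liver and 1 of 5 in mammary. The 2 tissues of 1 cow, a known pair, passed 0.1 in only 4 of 11 cows, so the check could miss a pairing. The block changed no call for ALB, while over all genes edgeR called 2 in liver with it and 0 without. Depth limits mammary ALB most in control cow 25, where 163 counts give an interval of 0.0343 to 0.0469%.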

Other observations

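In the reverse direction the list was short. Genes with at least 100 CPM in every mammary library and a median over the livers under 1% of the mammary mean numbered 9, and in the 12 liver libraries their median stood at 0.277 to 0.580% of the mammary level. The lowest value was in phase shift cow 24 and the highest in control cow 26.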
